A study of Mus musculus with 6 samples.

Results

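The genes described here are the replication-dependent histone genes of the mouse, taken as every gene symbol in the 6 deposited liver tables that begins with Hist1h, Hist2h, Hist3h or Hist4h. They numbered 55 of the 18253 symbols listed in at least 1 library, and they were chosen by symbol and by being listed with an FPKM (sequenced fragments relative to gene length and library depth) in at least 1 library. In GENCODE release M21, 70 genes of mm10 carry such symbols, and 15 of them were not listed. All 55 members matched the annotation. Of these, 43 lie on chromosome 13, 8 on chromosome 3, 3 on chromosome 11 and 1 on chromosome 6, and 2 (Hist1h2al and Hist3h2bb-ps) are annotated as processed pseudogenes. By histone type there were 6 members for H1, 17 for H2A, 13 for H2B, 7 for H3 and 12 for H4.

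All 6 libraries came from total RNA of the liver of C57BL/6 mice labelled postnatal day 21, and every group, including the controls, had received alpha-naphthylisothiocyanate (ANIT), a compound that injures bile duct cells and causes cholestasis. The ANIT group (3 libraries) had ANIT alone, and the celastrol group (3 libraries) had ANIT together with celastrol, a plant triterpenoid, with a treatment period of 5 days. No group without ANIT was analysed here, so the values show the celastrol group against the ANIT group only. The labels do not say that libraries came from separate animals, and p-values then measure the spread between these samples, which may be technical. The comparison asks which histone transcripts differ with celastrol in this injury model.

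Histones H2A, H2B, H3 and H4 form the core around which DNA is wound, and H1 binds the linker DNA between cores. Cells make most histone protein in S phase from clustered genes without introns, whose mRNAs end in a conserved stem-loop in place of a poly(A) tail. The stem-loop is bound by SLBP, and the mRNAs are degraded when DNA replication stops. Some cluster genes also give polyadenylated mRNAs, chiefly in cells that do not divide. Adult hepatocytes rarely divide, and replication-dependent mRNA is scarce in resting adult liver. The mice here were labelled postnatal day 21, and no adult liver was compared. Whether poly(A) RNA was selected for these libraries is not given in the sources used here, and its part in the levels was not tested.

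The stem-loops of the abundant members are shown because they define this class of mRNA. A pattern of 16 bases, GGNNNTTNTNANNNCC with its outer 6 bases on each side able to pair, was searched on the sense strand of the GENCODE M21 transcripts. It occurred in 107 of 141767 transcripts (0.0755%), from 79 genes, of which 46 were cluster histone genes. Of the 55 members 38 had a transcript with it and 17 had none, and the annotated transcript of 5 of those 17 stops at the coding sequence. Among the 8 members with a group mean of at least 1 FPKM, 7 had the pattern, as follows (capitals mark the paired stem, lower case the loop).
Hist1h1c: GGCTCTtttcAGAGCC
Hist2h2aa1: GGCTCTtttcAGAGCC
Hist2h2aa2: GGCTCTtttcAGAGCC
Hist3h2a: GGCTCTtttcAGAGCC
Hist2h3c2: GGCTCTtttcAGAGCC
Hist1h4h: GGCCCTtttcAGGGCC
Hist1h4i: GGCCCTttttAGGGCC
The H1, H2A and H3 members shared 1 form, and the H4 members had a stem of another sequence. The eighth, Hist1h2bc, had no match in its annotated transcript of 2 exons. The annotated transcript went on for 35 bases past the stem-loop in Hist2h2aa1 and Hist2h2aa2 and for 46 bases in Hist1h4h. It went on for 330 bases in Hist1h4i, 377 in Hist2h3c2, 840 in Hist1h1c and 1643 in Hist3h2a.

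Promoters are shown for the 3 members on which the comparison turned most, Hist1h1c, Hist2h2aa1 and Hist1h4h, from RefSeq on GRCm38.p6 (250 bases before to 50 after the gene start). Capitals mark matches, on either strand, to TATAAA, the TATA box, to the CCAAT box, to ATTTGCAT, the octamer known from H2B promoters, and to AAACACA, the H1 box.
Hist1h1c (chr13:23738557-23738856, + strand): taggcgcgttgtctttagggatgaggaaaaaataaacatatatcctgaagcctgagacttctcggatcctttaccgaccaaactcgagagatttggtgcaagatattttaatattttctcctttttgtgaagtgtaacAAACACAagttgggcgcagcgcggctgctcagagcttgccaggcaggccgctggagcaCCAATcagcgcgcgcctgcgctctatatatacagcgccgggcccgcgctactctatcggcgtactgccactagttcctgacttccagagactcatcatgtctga
Hist2h2aa1 (chr3:96245247-96245546, + strand): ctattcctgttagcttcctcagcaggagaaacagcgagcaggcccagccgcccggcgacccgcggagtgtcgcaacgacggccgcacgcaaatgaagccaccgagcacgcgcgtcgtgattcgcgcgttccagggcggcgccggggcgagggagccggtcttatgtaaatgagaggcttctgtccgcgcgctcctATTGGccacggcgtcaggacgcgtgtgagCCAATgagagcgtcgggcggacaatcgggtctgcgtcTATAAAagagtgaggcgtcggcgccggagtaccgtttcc
Hist1h4h (chr13:23530794-23531093, + strand): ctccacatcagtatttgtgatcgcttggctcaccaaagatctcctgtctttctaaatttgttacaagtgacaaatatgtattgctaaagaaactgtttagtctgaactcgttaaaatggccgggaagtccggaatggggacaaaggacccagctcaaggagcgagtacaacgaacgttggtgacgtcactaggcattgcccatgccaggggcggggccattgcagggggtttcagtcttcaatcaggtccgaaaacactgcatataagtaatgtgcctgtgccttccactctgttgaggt
The Hist1h1c window held an H1 box starting at base -112 and a CCAAT starting at base -54 from the gene start. The Hist2h2aa1 window held CCAAT on each strand (printed as ATTGG where it lies on the opposite strand) starting at bases -55 and -26, and a TATAAA starting at base 12, after the gene start. The Hist1h4h window held none of these letters. A window was found for 48 members (49 windows). The H1 box was in 5 of 6 windows of H1 members, 2 of 15 of H2A, 1 of 11 of H2B and none of 6 of H3 and 11 of H4, against 7.18% of all 32851 windows. The octamer was in 7 of 15 H2A and 5 of 11 H2B windows and in none of the others, against 1.74% of all windows. CCAAT was in all 6 H1, 15 H2A, 11 H2B and 6 H3 windows and in 3 of 11 H4 windows, against 37.4% of all. TATAAA was in 28 of the 49 windows, against 13.6%. None of these motifs overlapped another in the 3 windows printed.

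Depth, estimated from the spacing of low values, was between 18940000 and 19840000 reads per library, and at that depth 1 read over 500 bases is worth 0.101 to 0.106 FPKM. Between 15896 and 16400 symbols were listed per library. The 10 most abundant genes took 20.3 to 21.9% of the FPKM sum in the ANIT libraries and 33.2%, 20.7% and 31.5% in celastrol replicates 1, 2 and 3, and celastrol replicate 2 stood apart from the others of its group. Hepatocyte markers were abundant in all 6 libraries, with a summed FPKM of 47460 to 58580 under ANIT alone and 28430 to 32990 under ANIT plus celastrol. Of 7 tested 1 rose and 1 fell, against 4.41% called higher and 20.6% called lower of all tested genes. The lower sum was that of Alb (albumin), which fell from 32510 ± 5321 to 6985 ± 2658 FPKM (SD, n = 3 each), and the other 6 markers summed to 17920 to 21470 FPKM and 20340 to 27430 FPKM. Of these 6, Fgb alone had a higher mean with celastrol, from 4498 ± 969.9 to 10840 ± 3389 FPKM (SD, n = 3 each). Apoa1, Ttr, Cps1, Tat and Serpina1b had lower means, with log2 fold changes of -0.31 to -0.12, and none of them was called. In such bulk samples fewer cells of a type and less RNA per cell cannot be told apart.

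Most members were close to absent. A group of 3 genes carried the family: Hist1h2bc (H2B), Hist2h2aa1 (H2A) and Hist1h1c (H1) together made up 91.6 to 94.2% of the summed FPKM of all members in each library. Another 5 members, Hist2h3c2 (H3), Hist3h2a and Hist2h2aa2 (H2A) and Hist1h4i and Hist1h4h (H4), had a mean of at least 1 FPKM in at least 1 group. The other 47 stayed at or below 1.71 FPKM in every library. The summed FPKM of all members was 164.8, 217.8 and 192.2 under ANIT alone and 312.0, 285.1 and 318.8 under ANIT plus celastrol, and the groups did not overlap. FPKM is a level per length and allows genes to be compared, but the gene lengths the authors used are not known.

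Summed by histone type, group means were higher with celastrol for all 5 types, and celastrol replicate 2 was close to or among the ANIT libraries for H1 and H3. The H1 sum was 21.2, 26.0 and 26.8 FPKM under ANIT alone, against 74.2, 29.0 and 72.0 FPKM under ANIT plus celastrol. The H3 sum was 1.94, 3.14 and 2.47 FPKM under ANIT alone, against 6.93, 2.79 and 7.68 FPKM under ANIT plus celastrol. In both of these, celastrol replicate 2 lay at or near the ANIT libraries. The H2A sum was 67.2, 71.9 and 52.1 FPKM under ANIT alone, against 89.6, 109.3 and 101.8 FPKM under ANIT plus celastrol, and here celastrol replicate 2 was the highest of all. The H2B sum was 72.1, 112.6 and 107.8 FPKM under ANIT alone, against 133.1, 137.6 and 130.3 FPKM under ANIT plus celastrol. The H4 sum was 2.36, 4.09 and 3.0 FPKM under ANIT alone, against 8.16, 6.32 and 6.95 FPKM under ANIT plus celastrol. The groups overlapped only for H3. These sums are descriptions without a test.

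**Figure D1:**
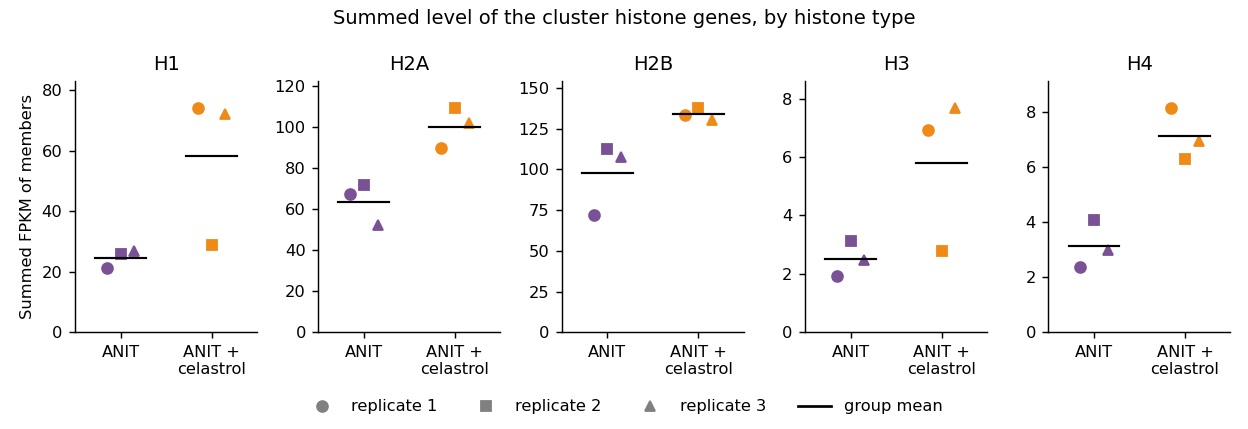
Summed FPKM of the members of each histone type (1 panel per type, vertical axis from 0), with 1 point per library and a line at the group mean. The celastrol libraries lie above the ANIT libraries for H2A, H2B and H4, whereas for H1 and H3 celastrol replicate 2 (29.0 and 2.79 FPKM) lies beside the ANIT libraries.

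Single genes were compared with limma on log2(FPKM + 1) over the 10593 genes that reached 1 FPKM in 3 or more libraries, with p-values adjusted by Benjamini-Hochberg over all of them and a threshold of 0.05. On this scale fold changes of genes near 1 FPKM are understated. The 8 members named above were the ones that passed the filter, and Hist1h4h, at 1 FPKM or more in 1 of 3 ANIT libraries, passed it through the group in which it was high. Hist2h2aa2 and Hist1h4i reached 1 FPKM in 2 of 3 ANIT libraries and needed celastrol libraries to pass. Hist1h4h and Hist2h2aa1 rose and none fell, against 4.41% of all tested genes called higher and 20.6% called lower with celastrol. Of the 8, 4 had all celastrol libraries above all ANIT libraries and none had the reverse, against 8.35% and 36.6% of all tested genes. The median log2 fold change of the 8 was 0.71, against -0.17 for all tested genes. Without the filter it was 0.11 over all 55 members, against -0.04 over all listed symbols. At an unadjusted p under 0.05, 4 members were higher and 0 lower, against 7.43% and 33.0% of all tested genes. Median-ratio scaling moved the median of all tested genes to -0.02 and that of the members to 0.87, and rescaling to TPM moved them to -0.30 and 0.64. Since the family was taken up with results of this contrast known, 2 calls are few and the filter admitted members through the group in which they were high, these counts and medians are a description.

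The abundant linker histone gene had uneven celastrol libraries. Hist1h1c, which encodes H1.2, a widely expressed linker histone (chromosome 13, positions 23738808 to 23740367 in mm10), measured 21.08, 25.76 and 26.54 FPKM under ANIT alone, against 72.30, 28.67 and 70.69 FPKM under ANIT plus celastrol. Celastrol replicates 1 and 3 were well above every ANIT library, celastrol replicate 2 was just above them, and the groups did not overlap. The means were 24.5 ± 2.95 and 57.2 ± 24.7 FPKM (mean ± SD, n = 3 each). The log2 fold change of 1.09 ± 0.35 (SE) missed the threshold (adjusted p = 0.065 by limma). Without celastrol replicate 2 it was 1.52 (SE 0.12, adjusted p = 0.00086 by limma). With any other single library left out it missed the threshold (adjusted p from 0.12 to 0.18 by limma). By annotated length and estimated depth these levels correspond to about 623 to 2224 reads, so counting error is small beside the spread between libraries.

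The other linker histone genes were low, and 4 of the 5 were lowest within the celastrol group in replicate 2. Hist1h1d (H1.3) measured 0.07, 0.08 and 0.19 FPKM under ANIT alone, against 0.84, 0.15 and 0.68 FPKM under ANIT plus celastrol. Hist1h1e (H1.4) measured 0.00, 0.08 and 0.10 FPKM under ANIT alone, against 0.51, 0.15 and 0.31 FPKM under ANIT plus celastrol. Both were highest in celastrol replicates 1 and 3 and lowest, within that group, in replicate 2. Hist1h1a (H1.1) was not listed in any ANIT library and measured 0.21, 0.07 and 0.21 FPKM with celastrol. Hist1h1b (H1.5) measured 0.07 FPKM in ANIT replicate 1 and 0.33 and 0.07 FPKM in celastrol replicates 1 and 3, and was not listed in the others. Hist1h1t, the testis-specific linker histone, was listed at 0.07 FPKM in ANIT replicate 2 and celastrol replicate 3 only. None of these 5 genes passed the filter.

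Among H2A genes, Hist2h2aa1 rose. This core histone gene (chromosome 3, positions 96245497 to 96246082) measured 63.59, 67.02 and 45.03 FPKM under ANIT alone, against 82.31, 101.57 and 95.39 FPKM under ANIT plus celastrol. Every celastrol library was above every ANIT library, celastrol replicate 2 being the highest. The means of 58.5 ± 11.8 and 93.1 ± 9.83 FPKM (mean ± SD, n = 3 each) gave a log2 fold change of 0.68 ± 0.18 (SE; adjusted p = 0.031 by limma). The call was lost without ANIT replicate 1, 2 or 3 (adjusted p of 0.057, 0.054 and 0.076), without celastrol replicate 1 or 3 (adjusted p of 0.063 and 0.074) and without the filter on low values (adjusted p = 0.057).

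Hist2h2aa2, its neighbour on the opposite strand (positions 96239749 to 96240276), has a coding sequence identical to that of Hist2h2aa1 in all 390 bases before the stop codon. Reads of the pair may therefore be divided between them in ways that the sources used here do not state. It was not listed in ANIT replicate 1, measured 1.27 and 1.23 FPKM in ANIT replicates 2 and 3, and measured 4.90, 2.44 and 1.24 FPKM with celastrol. Celastrol replicate 3 lay among the ANIT libraries, and the log2 fold change of 1.06 ± 0.46 (SE) missed the threshold (adjusted p = 0.14 by limma). Annotated antisense transcripts overlap both genes, and without a stated strand setting their reads cannot be told apart. Hist2h2aa1 also overlaps Gm20634, an annotated processed transcript on the same strand.

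Hist3h2a, an H2A gene on chromosome 11 (positions 58954685 to 58956830) that overlaps Trim17 on the same strand, measured 1.89, 2.49 and 4.12 FPKM under ANIT alone, against 1.86, 4.17 and 3.36 FPKM under ANIT plus celastrol. The groups overlapped fully, with a log2 fold change of 0.11 ± 0.28 (SE; adjusted p = 0.80 by limma), and its direction turned without ANIT replicate 1 or without celastrol replicate 2. The 14 other H2A members stayed at or below 0.71 FPKM. Among them, Hist1h2ad went the other way: it measured 0.31, 0.21 and 0.46 FPKM with ANIT and was not listed in any celastrol library. It did not pass the filter. Low members named beyond the 3 with the highest group means were chosen after their values were seen.

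Hist1h2bc, an H2B gene on chromosome 13 (positions 23684199 to 23692908), was the most abundant member in every library. It measured 70.53, 110.17 and 106.30 FPKM under ANIT alone, against 131.18, 135.47 and 128.51 FPKM under ANIT plus celastrol. The 3 celastrol libraries lay close together and above all ANIT libraries, among which replicate 1 was the lowest. The means were 95.7 ± 21.8 and 131.7 ± 3.51 FPKM (mean ± SD, n = 3 each). The log2 fold change of 0.48 ± 0.19 (SE) missed the threshold (adjusted p = 0.092 by limma), and passed under median-ratio scaling at 0.66 (adjusted p = 0.044 by limma). Rescaled to TPM it was 0.36 (adjusted p = 0.16 by limma), and without ANIT replicate 1 it was 0.28 (adjusted p = 0.24 by limma). The coding sequence of Hist1h2bc matches that of Hist1h2bj in 374 of 378 bases, so reads inside it could be shared with low members. Hist2h2be, also an H2B gene with no stem-loop match, lay just outside the level of 1 FPKM, at 1.04, 0.80 and 0.84 FPKM under ANIT alone, against 1.09, 0.79 and 0.89 FPKM under ANIT plus celastrol. Its libraries overlapped fully. Hist1h2bq and Hist1h2br, whose coding sequences are identical over 402 bases, had the same FPKM in all 6 libraries and cannot be told apart.

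The H3 gene above 1 FPKM, Hist2h3c2 (chromosome 3, positions 96238108 to 96239127), encodes H3.2 and, like Hist1h1c, was lowest within its group in celastrol replicate 2. It measured 1.29, 2.88 and 2.21 FPKM under ANIT alone, against 5.50, 1.86 and 6.15 FPKM under ANIT plus celastrol. Celastrol replicate 2 fell inside the ANIT range, and the other celastrol libraries were above it. The log2 fold change of 0.74 ± 0.38 (SE) missed the threshold (adjusted p = 0.20 by limma), and without celastrol replicate 2 it was 1.16 (SE 0.22, adjusted p = 0.012 by limma). With any other single library left out it missed the threshold (adjusted p from 0.23 to 0.44 by limma). The coding sequence of Hist2h3c2 matches that of Hist2h3b in 407 of 408 bases. Of the 6 low H3 members, Hist1h3d was the one whose groups did not overlap, at 0.13 FPKM in ANIT replicate 3, not listed in the other ANIT libraries, and 0.47, 0.24 and 0.44 FPKM with celastrol.

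Among H4 genes, Hist1h4h rose. It measured 0.49, 1.06 and 0.60 FPKM under ANIT alone, against 1.95, 3.02 and 1.74 FPKM under ANIT plus celastrol (chromosome 13, positions 23531050 to 23531519). All celastrol libraries were above all ANIT libraries, and celastrol replicate 2 was the highest. The means of 0.717 ± 0.302 and 2.24 ± 0.687 FPKM (mean ± SD, n = 3 each) gave a log2 fold change of 0.91 ± 0.19 (SE; adjusted p = 0.013 by limma), and it passed under all 13 alternatives tried (adjusted p from 0.0068 to 0.043). By annotated length this is about 4 to 10 reads per ANIT library and 16 to 28 per celastrol library. The counting error of each value is therefore large. The alternatives reuse the same libraries, and Hist1h4h passed the filter through the group in which it was high. The alternatives are therefore not independent support for the rise. The alternative without the filter gave an adjusted p of 0.028 by limma. Hist1h4i (positions 22040636 to 22041362) measured 0.85, 1.86 and 1.38 FPKM under ANIT alone, against 1.41, 1.54 and 2.61 FPKM under ANIT plus celastrol. Its groups overlapped, and the log2 fold change of 0.27 ± 0.21 (SE) missed the threshold (adjusted p = 0.37 by limma). The coding sequences of Hist1h4h and Hist1h4i are 95.8% identical, and those of Hist1h4m and Hist1h4n are 96.8% identical to each of them.

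**Figure D2:**
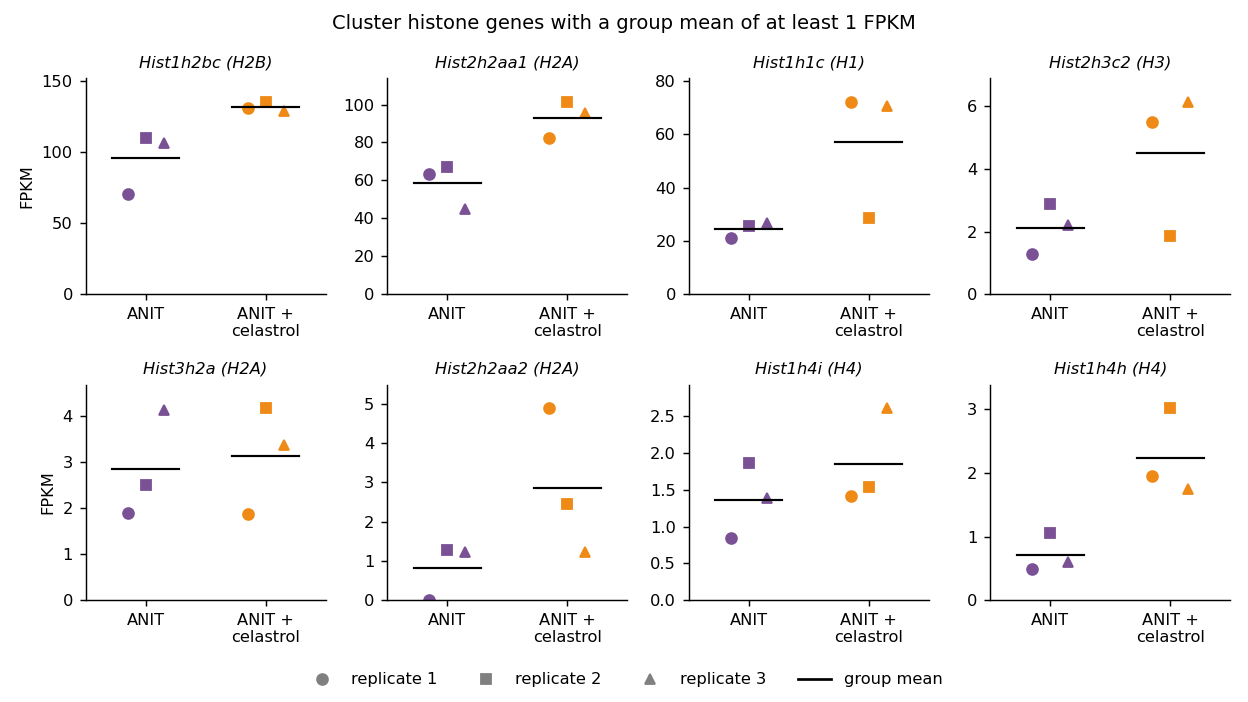
FPKM (vertical axis from 0, a scale for each gene) of the 8 members with a group mean of at least 1 FPKM, with 1 point per library and a line at the group mean. Hist1h1c and Hist2h3c2 have celastrol replicate 2 (28.67 and 1.86 FPKM) beside the ANIT libraries, while Hist2h2aa1 and Hist1h4h have it on top (101.57 and 3.02 FPKM).

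The 47 members with both group means below 1 FPKM were listed patchily. Of all 55 members 13 were listed in all 6 libraries and 11 in 1 library only. Members listed per library numbered 23, 31 and 28 with ANIT and 37, 32 and 33 with celastrol, while celastrol replicate 3 had the fewest symbols listed in all. Celastrol libraries alone listed 12 members, 8 of them in 1 library, and ANIT libraries alone listed 5. The 47 low members have a median annotated transcript length of 539 bases, over which 1 read is worth about 0.1 FPKM. The highest of them were Hist2h2be, Hist1h4m and Hist1h4k by their larger group mean (0.923, 0.727 and 0.577 FPKM, each with celastrol). Hist1h4c had the highest value in a library, 1.71 FPKM in celastrol replicate 1, and was otherwise listed only at 0.47 FPKM in ANIT replicate 2.

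Summed, the low members reached 5.11, 5.24 and 4.78 FPKM under ANIT alone, against 10.5, 6.38 and 9.08 FPKM under ANIT plus celastrol. The lowest celastrol library was again replicate 2. The low H4 members summed to 1.02, 1.17 and 1.02 FPKM under ANIT alone, against 4.80, 1.76 and 2.60 FPKM under ANIT plus celastrol, and the low H1 members to 0.14, 0.23 and 0.29 FPKM against 1.89, 0.37 and 1.34 FPKM. The low H2A and H2B members did not separate the groups, with sums of 0.54 to 1.85 FPKM and 1.52 to 2.44 FPKM over all libraries. On the mean of log2(FPKM + 1), 30 of the 47 low members (63.8%) were higher with celastrol and 16 lower, against 49.8% higher among all 7432 symbols below 1 FPKM in both group means. Over all members the median difference on log2(FPKM + 1) was 0.26 for the 6 H1, -0.01 for the 17 H2A, 0.05 for the 13 H2B, 0.24 for the 7 H3 and 0.19 for the 12 H4 genes. All 3 celastrol libraries lay above all ANIT libraries for 7 members (12.7%, against 7.39% of all listed symbols) and below them for Hist1h2ad alone (1.82%, against 24.1%). The 24.1% is raised by the tested genes, of which 36.6% lay lower, whereas most members were below the filter. The share among low symbols alone is not given here. The 7 were Hist1h1a, Hist1h1c, Hist1h1e, Hist2h2aa1, Hist1h2bc, Hist1h3d and Hist1h4h.

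**Figure D3:**
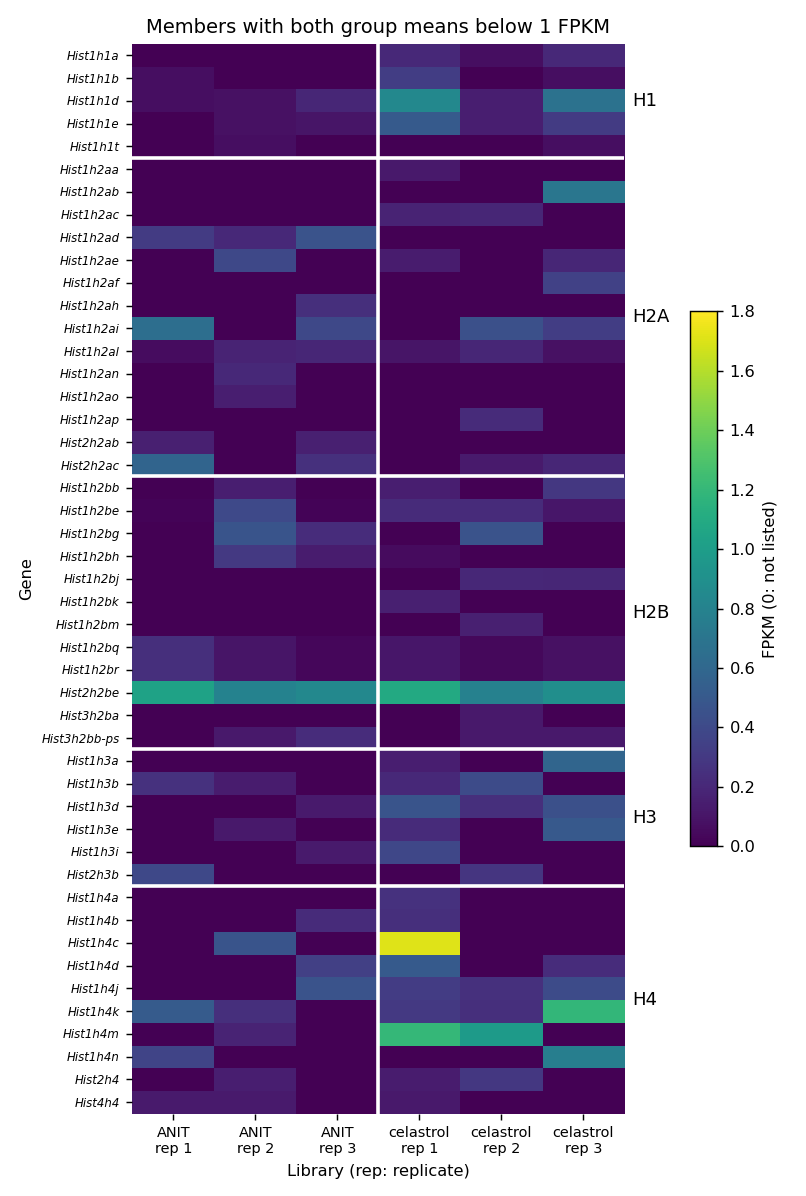
FPKM (colour, 0 where not listed) of the 47 members with both group means below 1 FPKM, with genes in rows grouped by histone type and the 6 libraries in columns. The H1, H3 and H4 rows carry more signal in celastrol replicates 1 and 3, up to 1.71 FPKM for Hist1h4c, and Hist1h2ad is listed with ANIT only.

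Histone genes outside the clusters mostly give polyadenylated mRNAs made independently of replication, and H2afx is known to give a stem-loop mRNA as well. Whether they differed from the cluster genes was not tested. Of 9 tested by limma, none rose and 1 fell (0 higher and 4 lower at an unadjusted p under 0.05), against 4.41% called higher and 20.6% called lower of all tested genes, with a median log2 fold change of -0.33. When rescaled to TPM 7 of the 9 fell, against 3813 of 10593 tested genes, and under median-ratio scaling 1 fell (median -0.15), against 1170. H2afj, an H2A variant, fell from 26.2 ± 5.62 to 14.2 ± 1.82 FPKM (mean ± SD, n = 3 each), a change on the log2 scale of -0.83 ± 0.17 (SE; adjusted p = 0.012 by limma). H1f0, the linker histone of resting cells, measured 74.36, 72.45 and 67.63 FPKM under ANIT alone, against 64.17, 49.81 and 56.18 FPKM under ANIT plus celastrol. All of its celastrol libraries were lower, but it did not pass (log2 fold change -0.33, adjusted p = 0.10 by limma). H3f3b, which encodes the replacement histone H3.3, had a log2 fold change of -0.33 (adjusted p = 0.16 by limma), and H2afx, the histone phosphorylated at DNA breaks, also a log2 fold change of -0.33 (adjusted p = 0.052 by limma). H2afz, which encodes H2A.Z, measured 25.12, 38.81 and 40.18 FPKM under ANIT alone, against 25.62, 45.10 and 24.04 FPKM under ANIT plus celastrol (adjusted p = 0.70 by limma). On the deposited FPKM, H2afz was highest in celastrol replicate 2, where Hist1h1c was lowest and Hist2h2aa1 and Hist1h2bc were highest within the group.

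**Figure D4:**
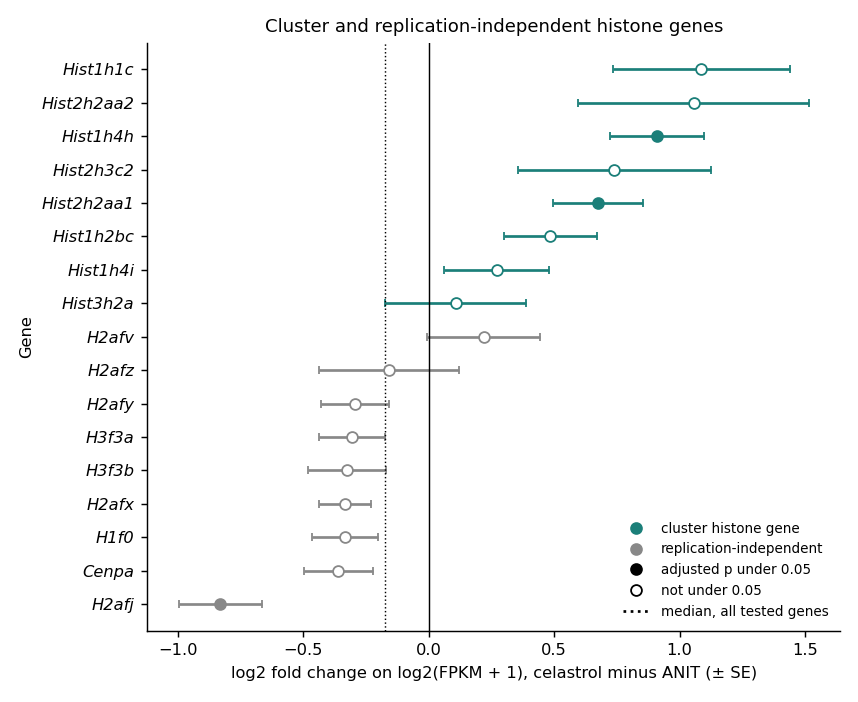
Log2 fold change on log2(FPKM + 1), celastrol minus ANIT, with its SE (horizontal axis), for the 8 tested cluster histone genes and 9 replication-independent histone genes, filled where the adjusted p was under 0.05, with a dotted line at the median of all tested genes (-0.17). The cluster genes lie between 0.11 and 1.09, and 8 of the 9 others lie below 0.

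Factors that bind and process histone mRNA were tested next. Slbp, the stem-loop binding protein, measured 5.45, 6.62 and 5.70 FPKM under ANIT alone, against 4.63, 6.17 and 5.11 FPKM under ANIT plus celastrol, and did not pass (log2 fold change -0.14, adjusted p = 0.43 by limma). Of 25 tested genes of stem-loop binding and 3' end processing 1 rose and 6 fell, shares close to the 4.41% and 20.6% of all tested genes, with a median log2 fold change of -0.09. Under median-ratio scaling 3 rose and none fell, so these calls depend on the scaling. The gene that rose was Mif4gd, whose protein (SLIP1) joins SLBP to the translation machinery, from 25.0 ± 1.56 to 54.8 ± 8.55 FPKM (mean ± SD, n = 3 each), a change on the log2 scale of 1.09 ± 0.14 (SE; adjusted p = 0.0027 by limma). The largest falls among genes past the threshold were those of Cpsf1, a cleavage factor subunit, Upf1, a helicase that acts in histone mRNA decay, and Ncbp1, the large cap-binding subunit, with log2 fold changes of -0.40, -0.38 and -0.37 (adjusted p by limma of 0.031, 0.027 and 0.030).

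Among 12 tested regulators of histone gene transcription 1 rose and none fell by limma, against 4.41% and 20.6% of all tested genes. At an unadjusted p under 0.05 by limma 1 was higher and 1 lower, and the median log2 fold change was -0.11. Npat, the coactivator of histone genes in S phase, measured 1.01 ± 0.176 and 0.940 ± 0.132 FPKM (mean ± SD, n = 3 each) and did not pass (adjusted p = 0.78 by limma). The gene that rose was Rbl2, the pocket protein p130 of resting cells, with a log2 fold change of 0.41 ± 0.10 (SE; adjusted p = 0.019 by limma). Of 21 tested histone chaperones and carriers none rose by limma (0 also at an unadjusted p under 0.05) and 6 fell, against 4.41% called higher and 20.6% called lower of all tested genes. Under median-ratio scaling 2 fell. The median log2 fold change was -0.17, as for all tested genes. Hjurp, the chaperone of the centromeric histone CENP-A, fell from 7.27 ± 0.987 to 3.21 ± 0.385 FPKM (mean ± SD, n = 3 each; log2 fold change -0.97, adjusted p = 0.0022 by limma). Ipo4, which imports H3 and H4, fell too (log2 fold change -0.70, adjusted p = 0.0047 by limma), and so did Rbbp7, a histone-binding subunit, Anp32e, a chaperone of H2A.Z, Cabin1, a partner of HIRA, and Asf1a, a chaperone of H3 and H4. Their log2 fold changes ran from -0.45 to -0.32 (adjusted p by limma of 0.032 to 0.037).

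Mki67 and Top2a were near 0 in both groups. Mki67, which marks cycling cells, measured 0.05, 0.06 and 0.05 FPKM under ANIT alone, against 0.08, 0.18 and 0.10 FPKM under ANIT plus celastrol. Top2a, a topoisomerase of dividing cells, measured 0.09, 0.07 and 0.13 FPKM under ANIT alone, against 0.10, 0.24 and 0.14 FPKM under ANIT plus celastrol. Both lay below the filter and were highest in celastrol replicate 2. In that library Hist1h1c and Hist2h3c2 were lowest within their group, whereas Hist2h2aa1, Hist1h2bc, Hist3h2a and Hist1h4h were highest within it. These orders are those of the deposited FPKM. Median-ratio factors were 0.92, 1.04 and 0.88 for celastrol replicates 1, 2 and 3. Dividing by them lowers replicate 2 against the others and may change the orders. Of the 26 listed S phase and proliferation genes below the filter, replicate 2 was the highest celastrol library for 17. That library listed the most symbols (16400), and the same share over all symbols is not given here. For 6 of the 26 all celastrol libraries lay above all ANIT libraries, and for 0 below them, against 7.39% and 24.1% of all listed symbols. The 24.1% is raised by tested genes, of which 36.6% lay lower, and the share among low symbols alone is not given here. The 6 were Mki67, Ccna2, Ccnb1, Birc5, Plk1 and E2f7, which were not tested. Pcna, the replication clamp, measured 17.66, 16.71 and 18.28 FPKM under ANIT alone, against 12.43, 18.70 and 16.11 FPKM under ANIT plus celastrol (adjusted p = 0.44 by limma). Of 45 S phase and proliferation genes 19 were tested, and 2 rose and 2 fell, against 4.41% and 20.6% of all tested genes (median log2 fold change 0.08). E2f8 was below 1 FPKM in all 3 ANIT libraries and passed the filter through the group in which it was high. Those that rose were E2f8, a repressor of the E2F family, from 0.323 ± 0.170 to 4.37 ± 0.289 FPKM (mean ± SD, n = 3 each; log2 fold change 2.03, adjusted p = 0.00020 by limma), and Gins1, a subunit of the replicative helicase (log2 fold change 0.54, adjusted p = 0.025 by limma). Ccnd1, the G1 cyclin D1, fell from 28.0 ± 8.61 to 1.89 ± 0.121 FPKM (mean ± SD, n = 3 each; log2 fold change -3.29, adjusted p = 0.00022 by limma), and Gmnn, the inhibitor of replication licensing, had a log2 fold change of -0.59 (adjusted p = 0.039 by limma).

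Markers of some other cell types passed the threshold, beside 4.41% of all tested genes called higher and 20.6% called lower. Of 4 tested neutrophil markers 3 rose, or 1 when rescaled to TPM, and the summed FPKM of the 6 was 30.89, 54.05 and 35.42 with ANIT and 65.37, 70.68 and 90.32 with celastrol. Elane and Mpo, granule genes of immature granulocytes, reached at most 0.06 and 0.08 FPKM under ANIT alone, against 1.40, 0.23 and 1.63 FPKM and 0.63, 0.24 and 2.96 FPKM under ANIT plus celastrol. Within that group both were lowest in replicate 2, as was Ly6g, whereas S100a8, S100a9 and Retnlg were lowest in replicate 1. Of 5 tested sinusoidal endothelial markers 1 rose, with sums of 20.9 to 38.2 FPKM under ANIT alone, against 32.2 to 58.4 FPKM under ANIT plus celastrol. Of 3 tested cholangiocyte markers 1 fell, with sums of 38.9 to 46.2 FPKM and 16.2 to 44.7 FPKM, and Cftr was not listed with celastrol. Of 7 tested erythroid markers 1 rose (1 higher and 4 lower at an unadjusted p under 0.05; median log2 fold change -1.48), with sums of 237.3 to 434.7 FPKM under ANIT alone, against 73.85, 231.3 and 56.6 FPKM under ANIT plus celastrol. The 6 tested Kupffer cell markers had none past the threshold by limma and 0 at an unadjusted p under 0.05, with sums of 77.4 to 193.8 FPKM and 133.8 to 200.7 FPKM. The 3 tested stellate cell markers had none past it and 1 lower at an unadjusted p under 0.05, with sums of 4.47 to 8.81 FPKM and 3.84 to 12.2 FPKM, and the sums of the T and B cell lists stayed at or below 1.61 FPKM. The part of these cells in the histone levels was not tested.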

How the data were processed

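RNA sequencing was done on 3 liver libraries per group, and titles gave the group and replicate number. The authors deposited FPKM by gene symbol in 1 file for each library, per the file headers. HISAT2, featureCounts and the build mm10 are named without versions, per the submitters' processing notes. The sources used here do not give the annotation, gene lengths, strand setting, treatment of reads that map to several genes or the step to FPKM, so near-identical histone genes are uncertain. No 0 was listed (smallest FPKM 0.01), and absence from a file was read as 0. The 2 duplicated date-like names were left out.

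The test was limma 3.58.1 (R 4.3.3) on log2(FPKM + 1), for genes reaching 1 FPKM in 3 or more libraries (empirical Bayes trend, robust variance, group as the only term), after the script was tested on simulated data. Depth was estimated as the read total at which FPKM between 0.1 and 1 of genes with 1 transcript of 400 to 2500 bases came closest to whole reads. Annotation came from GENCODE M21 and promoters from RefSeq (GRCm38.p6), matched by older symbols. Members with a group mean of at least 1 FPKM were named with all values, and of each related list the genes past the threshold (up to 6, or the 3 largest changes per direction) plus 9 fixed genes. Members and lists were chosen with earlier results of these data known. Alternatives were a pseudocount of 0.1, no filter, a filter on the mean, median-ratio scaling, TPM, non-robust variance, a replicate block and each library left out.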

Additional observations from a re-analysis of the deposited data

How the results depend on the processing

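Over all tested genes, 467 higher and 2185 lower calls became 793 and 1170 under median-ratio scaling, and 3813 were lower when rescaled to TPM. Under these scalings the median over tested genes moved from -0.17 to -0.02 and -0.30 (log2). Leaving out 1 library gave 218 (without celastrol replicate 1) to 515 (without celastrol replicate 2) higher and 909 to 3326 lower calls, with the same 2 libraries at the ends. Counts of higher calls moved by over 1.5 times without ANIT replicate 1 (297) or 2 (259) or celastrol replicate 1, and counts of lower calls also without ANIT replicate 1 (1287) or 2 (1010) or celastrol replicate 3 (1303). The 2 members called higher became 1 (Hist1h4h) when ANIT replicate 1, 2 or 3 or celastrol replicate 1 or 3 was left out, and 4 without celastrol replicate 2 (Hist1h1c, Hist2h3c2, Hist2h2aa1 and Hist1h4h). The cause was not tested. Without the filter 3 members were higher (Hist1h1a, Hist1h3d and Hist1h4h) and 1 lower (Hist1h2ad), and the median log2 fold change of members, 0.71, became 0.11 because 47 low members entered. With each library left out in turn it ran from 0.58 to 0.85. Hist3h2a ran from -0.0766 (without celastrol replicate 2; -0.0762 without ANIT replicate 1) to 0.35 (without celastrol replicate 1).

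Deviations of same-numbered libraries from the group means correlated at 0.15, 0.23 and -0.09, and those of differently numbered libraries at -0.24 to 0.18. ANIT replicate 1 correlated best with celastrol replicate 3, and ANIT replicates 2 and 3 with celastrol replicate 2. With 3 libraries per group these values cannot decide whether the libraries were paired. With the replicate block 479 genes were higher and 2106 lower, the same 2 members were higher and none lower, and the median over members was 0.71. Short members near 0.1 FPKM rest on a few reads, so their counting error is large.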
